A study of Mus musculus with 4 samples.

Results

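Expression of 32 genes of cholesterol and fatty acid synthesis was measured by bulk RNA sequencing in J558 allografts of mice given vehicle or TAK-931. The genes were taken by symbol from a written list of sterol-sensing factors, enzymes of the mevalonate and sterol pathway, and enzymes of fatty acid synthesis and desaturation. All 32 were found among the 24421 gene rows of the count tables, and all 32 passed the filter on low counts that left 13669 genes for the test. J558 is a mouse plasmacytoma line, grown here as a tumour under the skin of the right flank of female BALB/c mice with their own immune system, and the ages of the mice were not given in the labels. Vehicle was 0.5% methylcellulose, and TAK-931, an inhibitor of the replication kinase CDC7, was given at 60 mg/kg, both by mouth, with RNA taken on day 6. The labels name 2 vehicle-treated allografts (Vehicle-1 and Vehicle-2) and 2 TAK-931-treated allografts (TAK-931-1 and TAK-931-2), each sequenced as 1 library of the whole tumour. J558 is 1 line, so the values speak for this model alone.

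Cholesterol is built from acetyl-CoA through mevalonate, isoprenoid units and squalene, and fatty acids are built from the same acetyl-CoA through malonyl-CoA. Both pathways are transcribed under sterol regulatory element-binding proteins (SREBPs), which are made as membrane-bound precursors in the endoplasmic reticulum. When sterols are scarce the escort protein SCAP carries the precursors to the Golgi for cleavage, and when sterols are plentiful the INSIG proteins hold them back. Plasma cells secrete large amounts of protein and hold an extended endoplasmic reticulum, the membrane in which the sterol enzymes reside.

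The bases before the gene start are shown for 6 of the genes, to set the letters that SREBPs and their partners are known to read beside the measured levels. The sequences come from the RefSeq promoter table of GRCm38.p6, the build of the deposited coordinates. The table follows a C57BL/6J genome, whereas the cells and mice here were BALB/c. It held 25 of the 32 genes, and Fdps, Fdft1, Sqle, Stard4, Scd1, Scd2 and Fads1 were not in it. The 250 bases upstream of each start were searched on both strands for TCACNCCA (the core of the sterol regulatory element), for CCAAT (the box read by NF-Y) and for GGGCGG (the GC box read by Sp1). TCACNCCA was found in 3 of the 25 genes, Srebf2, Hmgcs1 and Msmo1, and in 3.67% of the 32851 promoters of the table. CCAAT was found in 16 of the 25 genes (64%) and in 33.8% of all promoters, and GGGCGG was found in 19 of the 25 genes (76%) and in 32.7% of all promoters. These shares count unlike units. For each of the 25 genes only the start nearest its gene start was used, whereas the share over all promoters counts every start. The 3 genes with TCACNCCA are shown together with Cyp51 and Dhcr7, which were lower in both TAK-931-treated allografts, and Elovl6, which had the lowest p of the 32. Each run gives the last 200 bases before the start, with the letters of any of the 3 motifs in capitals (a CCAAT or GGGCGG of the other strand reads ATTGG or CCGCCC).

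Srebf2 (chr15:82147069-82147268, plus strand): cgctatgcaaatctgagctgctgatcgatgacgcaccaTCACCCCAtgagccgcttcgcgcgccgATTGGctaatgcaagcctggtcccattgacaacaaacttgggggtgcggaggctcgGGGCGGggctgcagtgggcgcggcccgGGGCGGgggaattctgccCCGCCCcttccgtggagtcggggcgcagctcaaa
Hmgcs1 (chr13:119690151-119690350, plus strand): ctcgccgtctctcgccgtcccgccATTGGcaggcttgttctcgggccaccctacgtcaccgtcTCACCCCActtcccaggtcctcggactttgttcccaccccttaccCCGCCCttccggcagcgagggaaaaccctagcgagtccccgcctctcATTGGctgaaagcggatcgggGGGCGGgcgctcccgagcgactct
Msmo1 (chr8:64733579-64733778, minus strand): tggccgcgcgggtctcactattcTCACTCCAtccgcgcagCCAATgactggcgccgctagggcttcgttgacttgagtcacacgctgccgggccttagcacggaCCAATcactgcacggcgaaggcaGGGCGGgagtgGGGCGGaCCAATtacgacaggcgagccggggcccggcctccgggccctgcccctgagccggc
Cyp51 (chr5:4104698-4104897, minus strand): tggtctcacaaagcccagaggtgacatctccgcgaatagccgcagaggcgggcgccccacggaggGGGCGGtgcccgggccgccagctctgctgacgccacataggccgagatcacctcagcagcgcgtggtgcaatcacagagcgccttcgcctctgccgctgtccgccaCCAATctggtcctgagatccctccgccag
Dhcr7 (chr7:143822967-143823166, plus strand): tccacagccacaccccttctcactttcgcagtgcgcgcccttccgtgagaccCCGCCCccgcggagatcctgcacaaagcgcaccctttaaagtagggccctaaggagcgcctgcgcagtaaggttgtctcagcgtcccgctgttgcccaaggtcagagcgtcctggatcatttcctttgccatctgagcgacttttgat
Elovl6 (chr3:129532186-129532385, plus strand): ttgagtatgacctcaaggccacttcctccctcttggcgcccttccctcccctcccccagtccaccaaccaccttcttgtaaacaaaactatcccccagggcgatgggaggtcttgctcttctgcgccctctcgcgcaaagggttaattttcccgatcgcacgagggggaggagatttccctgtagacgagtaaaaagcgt

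In Srebf2 the first base of TCACNCCA lay at -162 from the start, in Hmgcs1 at -137 and in Msmo1 at -177, each on the strand of the gene. Cyp51 held 1 CCAAT and 1 GGGCGG and Dhcr7 held 1 GGGCGG. Elovl6 held none of these letters in the window. A match describes the letters only, and none of the libraries measured binding of a factor. TCACNCCA was the only form of the sterol regulatory element searched, so a gene without it may still hold another form.

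Depth was similar in the 4 libraries, between 16487902 and 19589339 counts. Across the 13669 genes tested, log2 CPM correlated with a Pearson's r of 0.977 between the vehicle-treated libraries and 0.865 between the TAK-931-treated libraries, a description across genes that are not independent. The TAK-931-treated libraries thus stood apart from each other, and the summed markers of T cells, macrophages, fibroblasts, endothelium, adipocytes and skeletal muscle were highest in TAK-931-1. The limit set by a count of 0 was 3 counts, or 0.153 to 0.182 CPM, which covers counting error only and is too low where both mates of a pair were counted, and 1 member, Fads2 in TAK-931-2, was under that limit.

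Most of the 32 genes were lower in the TAK-931-treated allografts, more so in TAK-931-1 than in TAK-931-2, and none passed the test across all genes. The median log2 fold change of the 32 genes (TAK-931 against vehicle) was -0.42, against 0.02 over all 13669 genes tested, and 29 of the 32 values were negative. By edgeR's quasi-likelihood test 0 of the 32 genes reached an adjusted p under 0.05, as did 0.0% of all genes, and their adjusted p ran from 0.275 to 0.973. At an unadjusted p under 0.05 2 of the 32 genes were lower in TAK-931, Elovl6 and Dhcr7, against 6.55% of all genes. In the other direction there were 0 of the 32 against 11.6% of all genes. DESeq2 gave 2 genes at an adjusted p under 0.05, Elovl6 lower and Scd1 higher, where it called 10.2% of all genes.

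Counted by their levels, 18 of the 32 genes lay below both vehicle-treated allografts in both TAK-931-treated allografts, against 32.7% of all genes tested. Above both in both were 3 of the 32, Hmgcs1, Tm7sf2 and Scd1, against 30.0% of all genes. In 8 of the 32 genes, Srebf2, Scap, Msmo1, Sc5d, Fasn, Scd2, Fads1 and Fads2, the TAK-931-treated allografts lay on opposite sides of the vehicle pair, against 19.3% of all genes. The remaining 3, Insig1, Ebp and Stard4, had 1 TAK-931-treated allograft between the vehicle pair.

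The TAK-931-treated allografts differed from each other in the size of the difference. In TAK-931-1, 26 of the 32 genes lay below both vehicle-treated allografts (47.4% of all genes did) and 5 lay above both (46.1% of all genes). Their median log2 ratio to the vehicle mean was -0.83 in TAK-931-1, against -0.02 over all genes. In TAK-931-2, 21 lay below both (44.4% of all genes) and 9 above both (42.3% of all genes), with a median log2 ratio of -0.19 against -0.01 over all genes. A log2 ratio under -1, that is, a level under 0.5 of the vehicle mean, was seen for 13 of the 32 genes in TAK-931-1 (17.0% of all genes) and for 2 in TAK-931-2, Elovl6 and Fads2 (4.73% of all genes), the latter from only 2 counts. The level was lower in TAK-931-1 than in TAK-931-2 for 27 of the 32 genes, and for 6781 of the 13669 genes tested. Both sets of ratios share the vehicle-treated allografts, so they are not independent of each other.

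**Figure D1:**
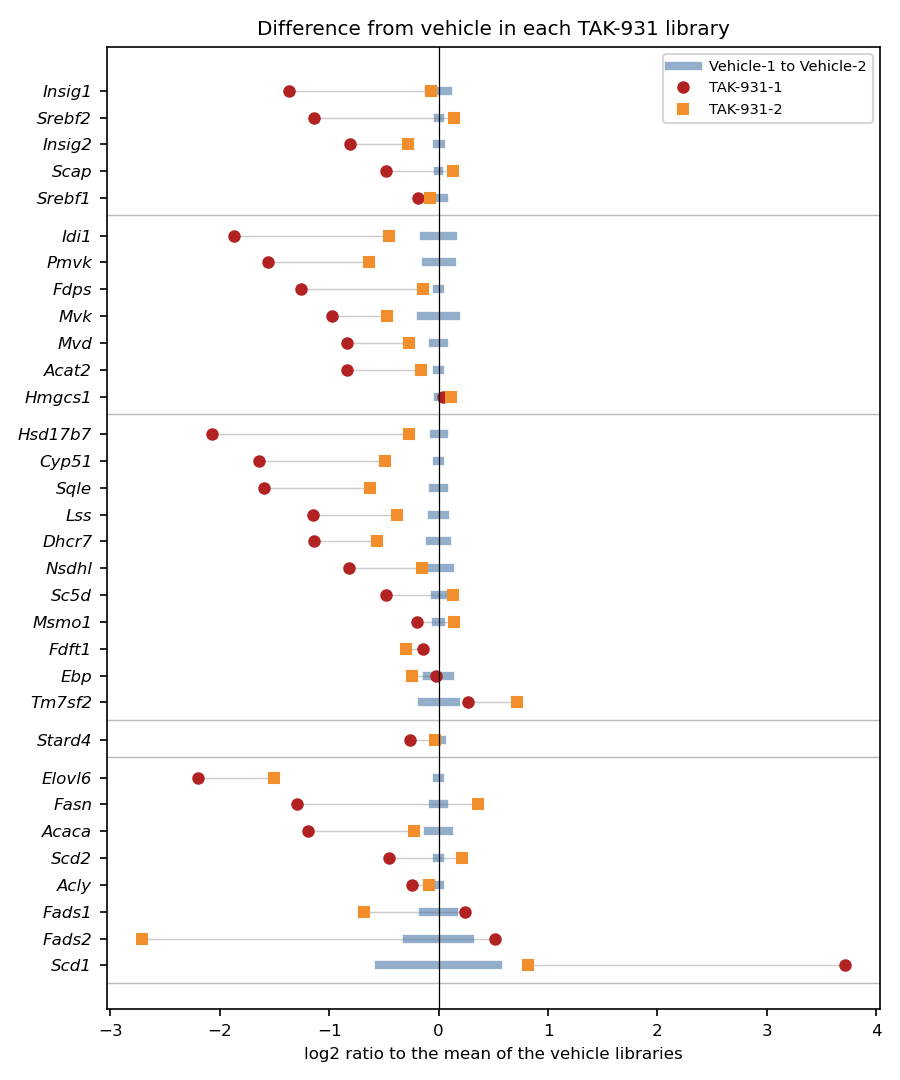
Log2 ratio of each of the 32 genes to the mean of the vehicle-treated libraries (x axis; CPM with a prior count of 2) in TAK-931-1 (red circles) and TAK-931-2 (orange squares), grouped from top to bottom as SREBP control, mevalonate arm, squalene and sterol arm, sterol transfer and fatty acid arm; the blue bar spans the vehicle-treated libraries. Red lies to the left of orange for 27 of the 32 genes, and Scd1 stands apart on the right in TAK-931-1; the value of Fads2 in TAK-931-2 rests on 2 counts.

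The count of calls depended on which TAK-931-treated allograft was kept. Without TAK-931-1, 7 of the 32 genes reached an adjusted p under 0.05 (28.7% of all genes did), namely Elovl6, Dhcr7, Cyp51, Sqle, Pmvk and Fads1 lower and Fasn higher. Without TAK-931-2, 23 of the 32 did (58.1% of all genes). In both of these fits the remaining TAK-931 library has no partner and is assumed to vary as the vehicle pair does.

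The 5 genes of SREBP control were lower in TAK-931-1 and had no common side in TAK-931-2. All 5 lay below both vehicle-treated allografts in TAK-931-1 (47.4% of all genes), and their median log2 ratio was -0.81. The median was -0.07 in TAK-931-2, with 2 below (44.4% of all genes), 2 above (42.3% of all genes) and 1 between, counts near those of all genes. Srebf2, the SREBP best known for sterol synthesis, was at 160 and 162 CPM (TMM-scaled counts relative to library size) in Vehicle-1 and Vehicle-2, 73.1 CPM in TAK-931-1 and at 177 CPM in TAK-931-2. Insig1, which retains SCAP in the endoplasmic reticulum and is itself an SREBP target, was at 49.2 and 55.6 CPM in the vehicle pair, 20.2 CPM in TAK-931-1 and at 49.7 CPM in TAK-931-2. Both genes had a log2 ratio under -1 in TAK-931-1 only, and their groups overlapped. Insig2, the paralog of Insig1, was at 44.2 and 43.0 CPM in vehicle, at 24.9 CPM in TAK-931-1 and at 35.9 CPM in TAK-931-2, with no overlap (log2 fold change -0.52, SE 0.28). Scap was at 84.6 and 84.0 CPM in vehicle, at 60.3 CPM in TAK-931-1 and at 92.2 CPM in TAK-931-2. Srebf1, the SREBP best known for fatty acid synthesis, was at 82.4 and 88.6 CPM in vehicle, at 75.0 CPM in TAK-931-1 and at 81.0 CPM in TAK-931-2 (log2 fold change -0.13, SE 0.20). The difference in Srebf1 was thus the smallest of the 5 in TAK-931-1, where Insig1 and Srebf2 had the largest. Exons of Srebf1 overlap the opposite-strand gene Rai1 over 214 bases (4.98% of its exon length), and the strand setting of the counting was not stated.

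The mevalonate arm, from acetoacetyl-CoA to farnesyl diphosphate, was lower in both TAK-931-treated allografts for 6 of its 7 genes, against 32.7% of all genes. The median log2 fold change of the 7 was -0.59, with median log2 ratios of -0.98 (TAK-931-1) and -0.27 (TAK-931-2). The exception was Hmgcs1, which makes HMG-CoA. It was at 45.1 and 44.5 CPM in vehicle, at 45.9 CPM in TAK-931-1 and at 48.5 CPM in TAK-931-2 (log2 fold change 0.08, SE 0.20). Acat2, the cytosolic thiolase that precedes it, was at 26.6 and 27.0 CPM in vehicle, at 15.0 CPM in TAK-931-1 and at 24.0 CPM in TAK-931-2. Hmgcs1 was therefore level across all 4 libraries while its neighbour in the pathway was not. Downstream, Mvk (mevalonate kinase) was at 30.5 and 24.5 CPM in vehicle, at 13.8 CPM in TAK-931-1 and at 19.7 CPM in TAK-931-2. Pmvk (phosphomevalonate kinase) was at 44.8 and 38.0 CPM in vehicle, at 13.9 CPM in TAK-931-1 and at 26.5 CPM in TAK-931-2 (log2 fold change -1.03, SE 0.40, unadjusted p = 0.055 by edgeR). Mvd, the decarboxylase that follows, was at 31.2 and 29.0 CPM in vehicle, at 16.8 CPM in TAK-931-1 and at 24.9 CPM in TAK-931-2. These 3 consecutive enzymes shared 1 order, with TAK-931-1 lowest and TAK-931-2 between it and vehicle. Idi1, which isomerises the first isoprenoid unit, was at 16.5 and 19.8 CPM in vehicle, at 4.85 CPM in TAK-931-1 and at 13.2 CPM in TAK-931-2 (log2 fold change -1.01, SE 0.59). Fdps, which joins isoprenoid units to farnesyl diphosphate, was at 93.7 and 92.2 CPM in vehicle, at 38.9 CPM in TAK-931-1 and at 84.3 CPM in TAK-931-2. Idi1 was the lowest of the arm in TAK-931-1, with the vehicle mean 3.75-fold above it, and Pmvk the lowest in TAK-931-2, with the vehicle mean 1.56-fold above it.

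In the squalene and sterol arm, which turns farnesyl diphosphate into cholesterol, 7 of 11 genes were below the vehicle pair in both TAK-931-treated allografts (32.7% of all genes) and 1 was above (30.0% of all genes). The median log2 fold change was -0.45, with median log2 ratios of -0.82 (TAK-931-1) and -0.28 (TAK-931-2). Sqle, the squalene epoxidase and first oxygen-dependent step, was at 45.9 and 49.3 CPM in vehicle, at 15.6 CPM in TAK-931-1 and at 30.7 CPM in TAK-931-2 (log2 fold change -1.04, SE 0.39, unadjusted p = 0.053 by edgeR). Cyp51, the lanosterol demethylase whose upstream bases are shown above, was at 68.7 and 67.3 CPM in vehicle, at 21.8 CPM in TAK-931-1 and at 48.5 CPM in TAK-931-2 (log2 fold change -0.95, SE 0.44). Dhcr7, the last reductase of the pathway, was at 51.8 and 46.5 CPM in vehicle, at 22.2 CPM in TAK-931-1 and at 33.1 CPM in TAK-931-2 (log2 fold change -0.83, SE 0.29, unadjusted p = 0.042, adjusted p = 0.275 by edgeR). In these 3 genes both TAK-931-treated allografts lay clear of the vehicle pair, TAK-931-1 by the wider margin. Lss, which closes the sterol ring, was at 31.0 and 28.5 CPM in vehicle, at 13.3 CPM in TAK-931-1 and at 22.9 CPM in TAK-931-2. Hsd17b7, a keto-reductase of the demethylation steps, was at 12.8 and 13.7 CPM in vehicle, at 3.06 CPM in TAK-931-1 and at 10.9 CPM in TAK-931-2. Nsdhl, which acts in the same demethylation steps, was at 32.9 and 38.0 CPM in vehicle, at 20.02 CPM in TAK-931-1 and at 31.7 CPM in TAK-931-2. Hsd17b7 had the lowest ratio of the arm in TAK-931-1, where the vehicle mean was 4.33-fold above it, against 1.21-fold in TAK-931-2.

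Other enzymes of the sterol arm did not share this order. Msmo1, the methyl oxidase that works between Cyp51 and Nsdhl, was at 24.5 and 25.3 CPM in vehicle, at 21.7 CPM in TAK-931-1 and at 27.4 CPM in TAK-931-2, and the direction of its fold change turned with the scaling (log2 fold change -0.02, SE 0.27). Sc5d, the lathosterol desaturase, was at 33.2 and 31.6 CPM in vehicle, at 23.2 CPM in TAK-931-1 and at 35.4 CPM in TAK-931-2. Ebp, the sterol isomerase, was at 50.05 and 58.0 CPM in vehicle, at 53.1 CPM in TAK-931-1 and at 45.5 CPM in TAK-931-2. For these 3 the groups overlapped. Tm7sf2, a sterol reductase, was low everywhere, at 4.27 and 3.42 CPM in vehicle, and higher in TAK-931-1 (4.64 CPM) and TAK-931-2 (6.36 CPM) (log2 fold change 0.52, SE 0.51). Fdft1, the squalene synthase, was at 20.2 CPM in both vehicle-treated allografts, 18.3 CPM in TAK-931-1 and at 16.5 CPM in TAK-931-2. Fdft1 was 1 of only 5 of the 32 genes that were higher in TAK-931-1 than in TAK-931-2. Its exons overlap those of Ctsb, the lysosomal protease cathepsin B, on the opposite strand over 773 bases, which is 20.9% of the exon length of Fdft1. Ctsb itself was at 497 and 522 CPM in vehicle, at 6357 CPM in TAK-931-1 and at 1179 CPM in TAK-931-2, and since the counting strand was not stated the value of Fdft1 is uncertain. Stard4, which carries cholesterol between membranes, was at 12.6 and 12.0 CPM in vehicle, at 10.2 CPM in TAK-931-1 and at 12.0 CPM in TAK-931-2.

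**Figure D2:**
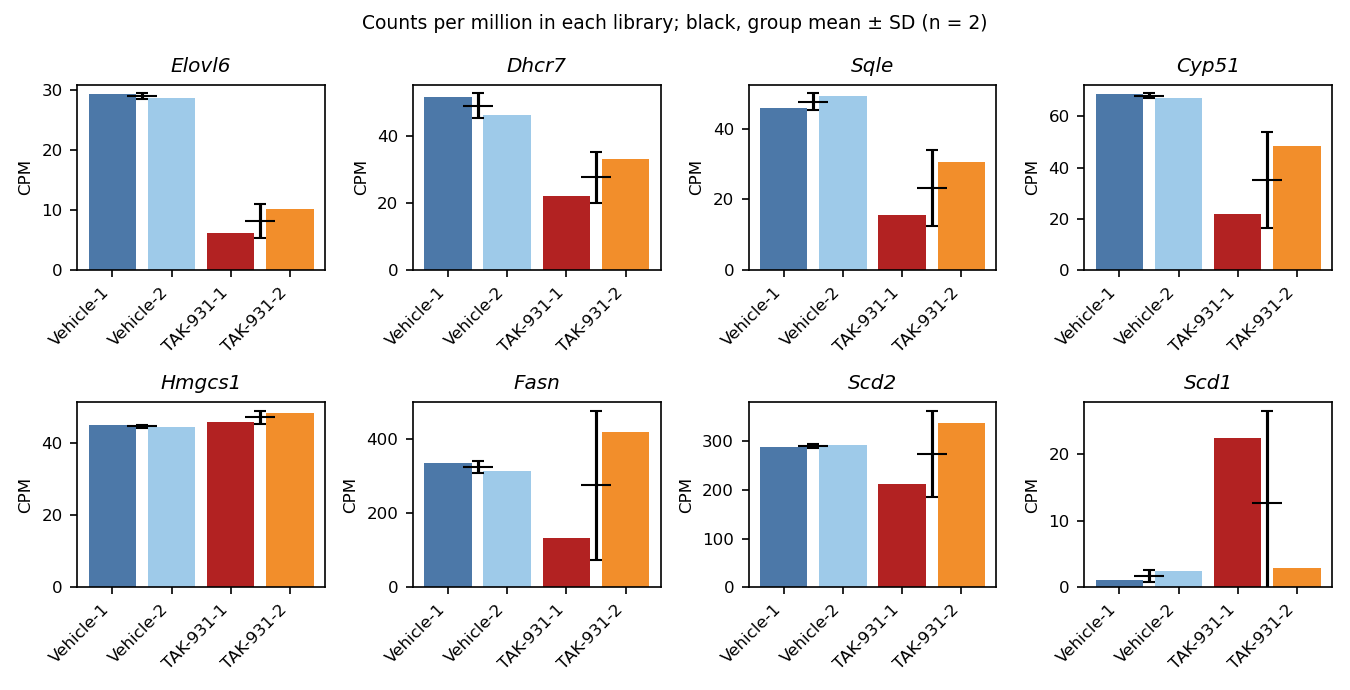
CPM (y axis, from 0, its own range in each panel) of Elovl6, Dhcr7, Sqle, Cyp51, Hmgcs1, Fasn, Scd2 and Scd1 in the 4 libraries (bars), with the mean and SD of each group (black, n = 2; the bar of Scd1 is cut at 0). Elovl6, Dhcr7, Sqle and Cyp51 are below vehicle in both TAK-931 libraries, Hmgcs1 is level, Fasn and Scd2 lie on opposite sides of vehicle, and Scd1 is high in TAK-931-1.

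The fatty acid arm was the least uniform. Of its 8 genes 3 were below the vehicle pair in both TAK-931-treated allografts, which is near the 32.7% of all genes, 1 was above (30.0% of all genes) and 4 lay on opposite sides (19.3% of all genes), and the median log2 fold change was -0.20. Elovl6, which elongates palmitate to stearate, had the most negative fitted log2 fold change of all 32 genes. It was at 29.3 and 28.7 CPM in vehicle (mean 29.0 ± 0.453, SD, n = 2), 6.22 CPM in TAK-931-1 and at 10.2 CPM in TAK-931-2 (mean 8.18 ± 2.78, SD, n = 2). The vehicle mean was 4.66-fold above TAK-931-1 and 2.85-fold above TAK-931-2, and the log2 fold change was -1.82 with an SE of 0.38. Its unadjusted p was 0.0067 and its adjusted p 0.275 by edgeR. That adjusted p was the lowest of the whole fit and was shared by many genes, among them Dhcr7 with an unadjusted p of 0.042 by edgeR. Elovl6 was the only one of the 32 genes that had a log2 ratio under -1 in both TAK-931-treated allografts. Me1, malic enzyme, a source of NADPH for fatty acid synthesis that is not among the 32, was at 57.0 and 56.8 CPM in vehicle, at 20.5 CPM in TAK-931-1 and at 36.8 CPM in TAK-931-2.

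Acaca, the acetyl-CoA carboxylase that makes malonyl-CoA, was at 88.4 and 77.4 CPM in vehicle, at 36.0 CPM in TAK-931-1 and at 70.8 CPM in TAK-931-2. Acly, which supplies cytosolic acetyl-CoA to both pathways, was at 178 and 174 CPM in vehicle, at 149 CPM in TAK-931-1 and at 165 CPM in TAK-931-2. Both lay below the vehicle pair in both TAK-931-treated allografts, Acly by the smaller margin. Fasn, the fatty acid synthase that acts between Acaca and Elovl6, was at 337 and 314 CPM in vehicle, at 133 CPM in TAK-931-1 and at 419 CPM in TAK-931-2. Fasn was thus below vehicle in one TAK-931-treated allograft and above it in the other (log2 fold change -0.24, SE 0.59), and the same held for Scd2. Scd2, the stearoyl-CoA desaturase of most tissues outside liver and fat, was at 288 and 293 CPM in vehicle, at 212 CPM in TAK-931-1 and at 337 CPM in TAK-931-2. In TAK-931-2 the pathway therefore held Fasn and Scd2 at 1.28-fold and 1.16-fold of the vehicle mean, and Elovl6 at 0.350-fold.

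Scd1, the paralog of Scd2 that predominates in liver, fat and sebaceous gland, had the most positive fitted log2 fold change. It was at 1.07 and 2.40 CPM in vehicle, at 22.5 CPM in TAK-931-1 and at 2.92 CPM in TAK-931-2, from counts of 18, 40, 427 and 50. TAK-931-1 stood at 13.0-fold of the vehicle mean and TAK-931-2 at 1.68-fold (log2 fold change 2.87, SE 1.17, unadjusted p = 0.066 by edgeR). Several markers of adipocytes, though not Cidec, were also higher in TAK-931-1. Adipoq, the adipocyte hormone, was at 0.237 and 0.240 CPM in vehicle, at 2.63 CPM in TAK-931-1 and at 0.117 CPM in TAK-931-2, and the summed level of the 8 adipocyte genes was 52.8, 74.9, 309 and 36.8 CPM in the same order. Fabp4, also known from macrophages and endothelium, made up 255 of those 309 CPM, and the lipid droplet gene Cidec was at 4.51 and 5.81 CPM in vehicle, at 3.58 CPM in TAK-931-1 and at 2.68 CPM in TAK-931-2. In TAK-931-2 the adipocyte sum was below both vehicle-treated allografts while Scd1 was above both, and a part of adipocytes in the value of Scd1 in TAK-931-1 was not tested. The desaturases of polyunsaturated fatty acids, Fads1 and Fads2, lay on opposite sides. Fads1 was at 75.1 and 61.5 CPM in vehicle, at 80.3 CPM in TAK-931-1 and at 42.4 CPM in TAK-931-2. Fads2 had 19 and 29 counts in vehicle, 39 in TAK-931-1 but only 2 in TAK-931-2, which is under the 3 counts that a count of 0 allows, so its ratio in TAK-931-2 cannot be read as a size. Fads1 and Fads2 were, with Fdft1, Ebp and Scd1, the 5 genes higher in TAK-931-1 than in TAK-931-2. Scd1 and Scd2, Fads1 and Fads2, and Insig1 and Insig2 are paralog pairs, and reads shared within a pair would not have been placed uniquely.

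Sums over genes were weighted to the abundant members. The 18 mevalonate and sterol enzymes together were at 663 and 657 CPM in vehicle, at 366 CPM in TAK-931-1 and at 550 CPM in TAK-931-2. The 8 genes of the fatty acid arm together were at 998 and 953 CPM in vehicle, at 641 CPM in TAK-931-1 and at 1047 CPM in TAK-931-2. The value above vehicle in TAK-931-2 rested on Fasn and Scd2, and the other 6 genes of the arm summed to 373 and 346 CPM in vehicle, to 296 CPM in TAK-931-1 and to 292 CPM in TAK-931-2. The sterol sum and the sum of these 6 genes were thus below vehicle in both TAK-931-treated allografts. All 32 genes together were at 2094 and 2055 CPM in vehicle, at 1271 CPM in TAK-931-1 and at 2045 CPM in TAK-931-2.

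Between genes, levels were compared per exon length as RPKM (CPM per kilobase of exon). Averaged over all 4 libraries, Fdps was the highest of the 32 with 52.9 RPKM, followed by Scd2 (51.8), Acly (37.6), Srebf2 (31.3), Fasn (30.3) and Ebp (29.6 RPKM). Fdps led in the vehicle-treated allografts, with 64.1 and 63.1 RPKM against 52.8 and 53.7 RPKM for Scd2. In both TAK-931-treated allografts Scd2 was above Fdps, with 38.9 against 26.6 RPKM in TAK-931-1 and 61.8 against 57.7 RPKM in TAK-931-2. In the vehicle mean 22 of the 32 genes were above 10 RPKM, and 2, Scd1 and Fads2, were below 1 RPKM. At the low end of the averages were Elovl6 (3.12), Hsd17b7 (2.21), Scd1 (1.49) and Fads2 (0.835 RPKM). For each of the 31 neighbouring pairs in the order of averages, the ranges over the 4 libraries overlapped, so the order holds between distant genes only. Stard4, the single transfer protein, averaged 3.92 RPKM. Insig1 was above Insig2 in 3 of the 4 libraries, and in TAK-931-1 it was below, at 7.64 against 8.42 RPKM.

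**Figure D3:**
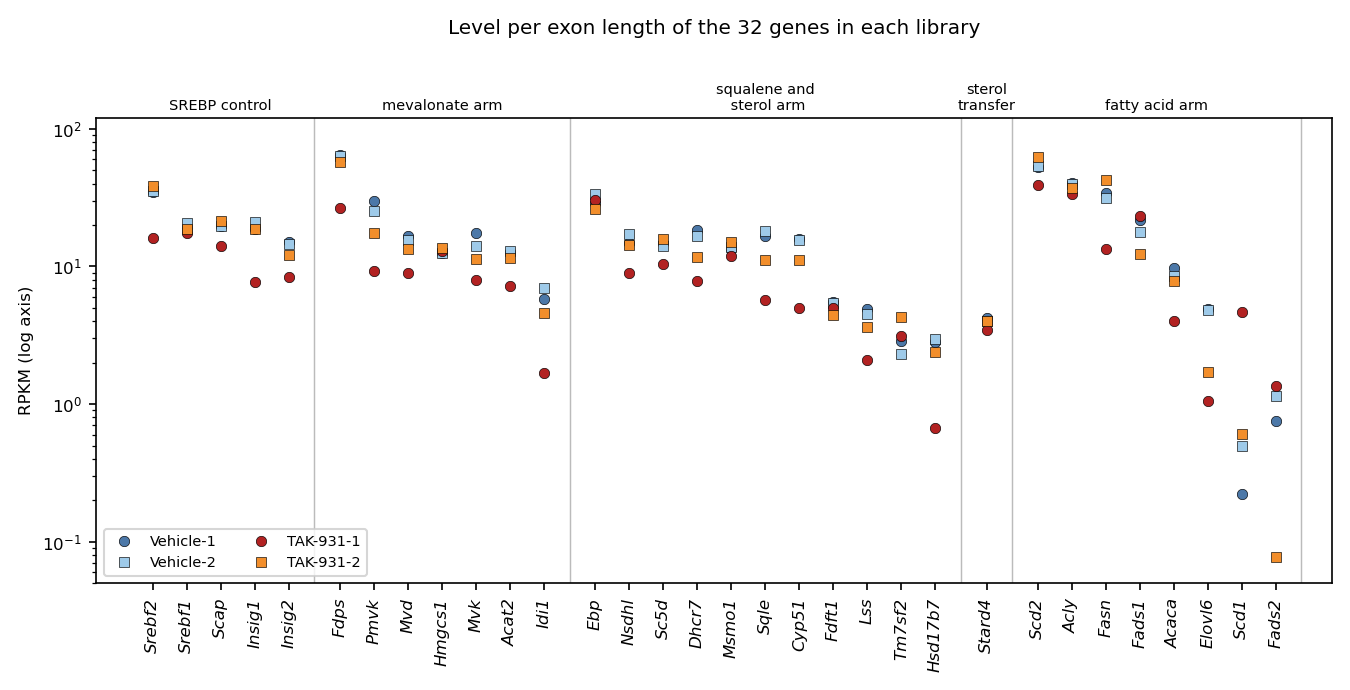
RPKM on a log axis (y axis) of the 32 genes (x axis, by role and then by mean level) in Vehicle-1 (dark blue circles), Vehicle-2 (light blue squares), TAK-931-1 (red circles) and TAK-931-2 (orange squares). Levels span from 64.1 RPKM for Fdps in Vehicle-1 to 0.0774 RPKM for Fads2 in TAK-931-2, and the red points lie lowest for most genes of the mevalonate and sterol arms.

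Neighbouring pathways did not all have the direction of the 32 genes. Of 19 further genes of SREBP processing and of the isoprenoid and fatty acid pathways 18 were tested, and 13 were below the vehicle pair in both TAK-931-treated allografts (32.7% of all genes) and 1 above (30.0% of all genes). Their median log2 fold change was -0.41, with median log2 ratios of -0.56 (TAK-931-1) and -0.23 (TAK-931-2), and 2 were lower at an unadjusted p under 0.05 (6.55% of all genes). By the mean of all libraries the most abundant of them per length was Tecr, the reductase of the elongation cycle, at 189 and 177 CPM in vehicle, at 130 CPM in TAK-931-1 and at 190 CPM in TAK-931-2. In the list of fatty acid oxidation, the opposite pathway, 7 of 14 genes were below in both (32.7% of all genes) and 1 above, with a median log2 fold change of -0.30 and 3 genes lower at an unadjusted p under 0.05 (6.55% of all genes). The synthesis and the oxidation lists thus both had negative medians. In triglyceride synthesis and storage 3 of 10 genes were below in both and 2 above, with a median of -0.06, counts near or under the 32.7% and 30.0% of all genes. Plin2, the coat protein of lipid droplets and by the mean of all libraries the most abundant per length of that list, was at 36.5 and 37.2 CPM in vehicle, at 433 CPM in TAK-931-1 and at 35.6 CPM in TAK-931-2. That mean rests on TAK-931-1, and in the other 3 libraries Plin3 was above Plin2, for example at 36.1 against 19.4 RPKM in Vehicle-1.

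Genes of sterol export and storage were on the other side. Of 13 genes of the liver X receptor (LXR) response, sterol efflux and lysosomal sterol handling, 10 were above the vehicle pair in both TAK-931-treated allografts (30.0% of all genes) and 0 below, and 6 were higher at an unadjusted p under 0.05 (11.6% of all genes). Their median log2 fold change was 1.81, with median log2 ratios of 2.49 (TAK-931-1) and 0.52 (TAK-931-2), and none reached an adjusted p under 0.05. Apoe, the apolipoprotein that accepts cholesterol, was at 280 and 376 CPM in vehicle, at 5612 CPM in TAK-931-1 and at 880 CPM in TAK-931-2. Npc2, which carries lysosomal cholesterol, was at 234 and 221 CPM in vehicle, at 979 CPM in TAK-931-1 and at 328 CPM in TAK-931-2. Lipa, the lipase that frees it, was at 90.3 and 90.2 CPM in vehicle, at 507 CPM in TAK-931-1 and at 119 CPM in TAK-931-2. All 3 genes were above vehicle in both allografts, by far less in TAK-931-2. Macrophages are known for high levels of these genes. The 8 monocyte and macrophage markers summed to 317 and 292 CPM in vehicle, to 4792 CPM in TAK-931-1 and to 796 CPM in TAK-931-2, the same order as the list, and their part in it was not tested.

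**Figure D4:**
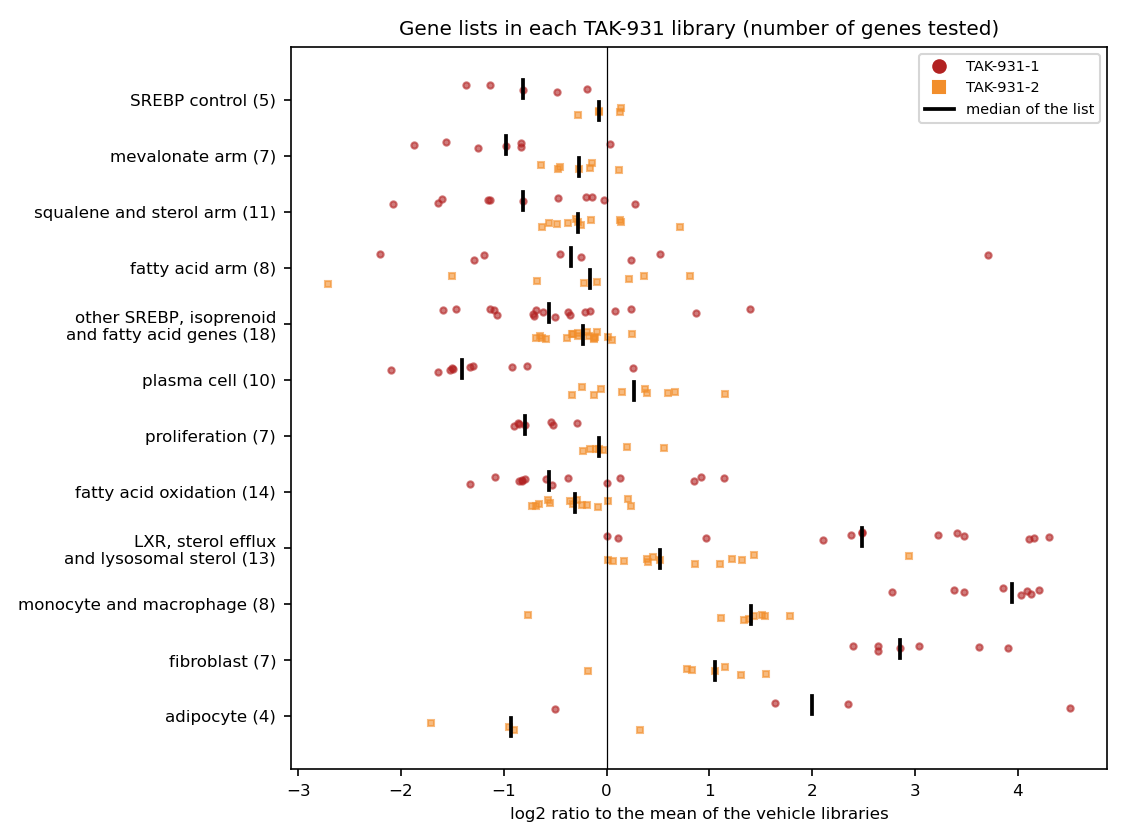
Log2 ratio to the mean of the vehicle libraries (x axis) of every tested gene of 12 lists (rows, with the number of genes tested) in TAK-931-1 (red circles) and TAK-931-2 (orange squares), with the median of each list as a black line. The medians of the synthesis lists and of the plasma cell list lie left of 0 in TAK-931-1, the plasma cell median lies right of 0 in TAK-931-2 at 0.26, and the macrophage and fibroblast medians lie on the right in both.

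The make-up of the allografts differed with the synthesis genes. The 10 plasma cell markers, the lineage of J558, summed to 15063 and 15278 CPM in vehicle, to 6125 CPM in TAK-931-1 and to 17837 CPM in TAK-931-2, with 9 of 10 below the vehicle pair in TAK-931-1 (47.4% of all genes). In TAK-931-2, 4 of 10 were below (44.4% of all genes) and 6 above (42.3% of all genes). The summed markers of 6 of 7 host cell types were highest in TAK-931-1. The median log2 ratio in TAK-931-1 and TAK-931-2 was 6.46 and 2.13 for 9 T cell genes, 3.95 and 1.41 for the monocyte and macrophage genes, 2.85 and 1.06 for 7 fibroblast genes, 1.84 and 0.01 for 6 endothelial genes, and 2.84 and -3.23 for 6 skeletal muscle genes. The 4 tested adipocyte genes had medians of 1.99 and -0.93, and the 5 tested sebaceous and keratinocyte genes 0.63 and -0.50. The sebaceous and keratinocyte list was the one of the 7 that was highest elsewhere, with sums of 4.57 CPM in Vehicle-1, 39.7 CPM in Vehicle-2, 17.5 CPM in TAK-931-1 and 4.90 CPM for TAK-931-2. Proliferation genes had medians of -0.79 and -0.08, with all 7 below the vehicle pair in TAK-931-1 (47.4% of all genes), and 4 below, 2 above and 1 between in TAK-931-2. The labels call the cells B lymphocytes, and of 6 mature B cell genes Pax5 was at 0 in all 4 libraries and 3 were tested, with medians of -1.19 and 0.80. In a bulk library fewer cells of a type and less RNA per cell cannot be told apart, and TAK-931 treatment and the make-up of TAK-931-1 cannot be told apart in that library.

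Set beside the plasma cell markers, the sterol enzymes mostly stood in opposite directions in the TAK-931-treated allografts, with exceptions by marker. Taken per each of the 10 markers in turn, their sum was above the vehicle pair for 8 and below for 1 in TAK-931-1, and above for 1 and below for 9 in TAK-931-2. Per 1000 CPM of the 10 plasma cell markers the 18 mevalonate and sterol enzymes were at 44.0 and 43.0 CPM in vehicle, at 59.8 CPM in TAK-931-1 and at 30.8 CPM in TAK-931-2. With the plasmacytoma antigen gene Trap1a alone as the denominator the order was the same, at 588 and 600 CPM in vehicle, at 1030 CPM in TAK-931-1 and at 445 CPM in TAK-931-2 per 1000 CPM of Trap1a. With Sdc1 (syndecan-1) alone, they were at 953 and 950 CPM in vehicle, at 1516 CPM in TAK-931-1 and at 936 CPM in TAK-931-2, so the difference in TAK-931-2 was small on that scale. The exception in TAK-931-2 was Pou2af1, with 127, 135, 310 and 138 CPM in the same order. Jchain alone made up 8124 of the 17837 CPM of the list in TAK-931-2, and per 1000 CPM of the list without Jchain the enzymes were at 66.5, 68.3, 123 and 56.6 CPM. Elovl6 was below the vehicle pair in both allografts with each of the 10 markers as the denominator. Per 1000 CPM of the plasma cell markers it was at 1.94 and 1.88 CPM in vehicle, at 1.01 CPM in TAK-931-1 and at 0.569 CPM in TAK-931-2. Per 1000 CPM of Trap1a it was at 26.0 and 26.2 CPM in vehicle, at 17.5 CPM in TAK-931-1 and at 8.22 CPM in TAK-931-2, and per 1000 CPM of Sdc1 at 42.1 and 41.4, 25.7 and 17.3 CPM. Per 1000 CPM of Pou2af1 it was at 5.61 and 5.88, 5.27 and 2.54 CPM, so the difference in TAK-931-1 was small on that scale. Fasn depended on the denominator. Per 1000 CPM of the plasma cell markers it was at 22.4 and 20.6 CPM in vehicle, at 21.7 CPM in TAK-931-1 and at 23.5 CPM in TAK-931-2. With Trap1a the values were 299, 287, 374 and 339 CPM and with Sdc1 485, 455, 551 and 712 CPM, above vehicle in both. With Jchain they were 66.4, 55.6, 42.4 and 51.5 CPM, below vehicle in both, and the same held with Prdm1 and Slamf7. Over the 10 markers in turn, Fasn was above the vehicle pair for 6 and below for 3 in TAK-931-1. In TAK-931-2 it was above for 5 and below for 5. Scd2 was at 19.1 and 19.2 CPM in vehicle, at 34.6 CPM in TAK-931-1 and at 18.9 CPM in TAK-931-2 per 1000 CPM of the plasma cell markers. With Trap1a the values of Scd2 were 255, 267, 596 and 273 CPM, and with Sdc1 414, 423, 877 and 573 CPM. Over the 10 markers in turn, Scd2 was above the vehicle pair for 9 and below for 1 in TAK-931-1. In TAK-931-2 it was above for 5 and below for 5. The fatty acid arm as a whole was at 66.3, 62.4, 105 and 58.7 CPM per 1000 CPM of the plasma cell markers, at 885, 870, 1802 and 848 CPM with Trap1a, and at 1434, 1379, 2653 and 1781 CPM with Sdc1. It was thus above vehicle in TAK-931-1 on all 3 scales, while in TAK-931-2 its side changed with the denominator. Over the 10 markers in turn, the arm was above the vehicle pair for 9 and below for 1 in TAK-931-1. In TAK-931-2 it was above for 4 and below for 6. The exception in TAK-931-1 was Slamf7, with 8081, 8090, 4457 and 5454 CPM in the same order. These ratios were computed after the levels had been seen, host cells are also known to express the synthesis genes, and none of the ratios was tested.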

How the data were processed

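RNA was extracted from 4 whole J558 allografts (2 vehicle, 2 TAK-931) and sequenced. The authors deposited 1 table of raw read counts per gene for each library, not normalized, with the summed exon length of each gene. The submitters' processing notes name STAR 2.6.1c, featureCounts and the build mm10, and the column headers speak of uniquely placed reads; the strand setting and the annotation release were not given in the sources used here. Odd values made up 17.9% to 23.9% of the counts up to 20, so both mates of a pair appear to be counted, and counting error is larger than the counts imply.

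Groups were taken from the sample titles. The filterByExpr filter (minimum count 10) and TMM scaling of edgeR 4.0.16 were applied in R 4.3.3. TAK-931 was compared with vehicle by edgeR's robust quasi-likelihood test, two-sided, with Benjamini-Hochberg adjustment over all 13669 genes and a threshold of 0.05; SE was the log2 fold change over the square root of F. The study states no gene-wise test for these libraries. For log2 ratios of single libraries a prior count of 2 was added. RPKM was CPM per kilobase of the deposited exon length. The labels do not state that the allografts were independent beyond their titles, so p-values measure the spread between these libraries; the libraries of each pair differed by more than counting noise (chi-square per degree of freedom 8.22 for vehicle and 276 for TAK-931) and were not 1 library deposited under both titles.

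All 32 members are accounted for. Values in every library are given for members that do not overlap between groups, that lie on opposite sides, that have an unadjusted p under 0.05 or that are among the 2 most abundant of a role. Of the other pathway lists at most the 3 most abundant genes per length are named, except Me1, which was chosen after its values were seen. The members, the pathway and marker lists and the tests were chosen with earlier results of these data known. The test was repeated with DESeq2 1.42.0 and limma-voom (limma 3.58.1), with a replicate block, without each library in turn, with library size only or median-of-ratios size factors as the scaling, with no filter or a filter of at least 10 counts per library, with halved counts, and the ratios with a prior count of 0.5. The test was checked on simulated counts with known changes. The check demanded recovery only at a spread narrower than that of these libraries, so it does not show that changes would be found here.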

Additional observations from a re-analysis of the deposited data

How the results depend on the processing

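With 2 libraries per group and a wide spread within the TAK-931 pair, the calls depended on the tool and on the library kept. Over all genes, 0 were called at an adjusted p under 0.05 with edgeR (2475 at an unadjusted p under 0.05), 1389 with DESeq2, 144 with the replicate block and 0 with limma-voom, and leaving out each library in turn gave 0 to 8424 (3996 without TAK-931-1, 8424 without TAK-931-2, 0 without either vehicle library). Of the 32 members, DESeq2 called 2, and leaving out each library gave 0 to 23. At an unadjusted p under 0.05, 4 members were lower with the replicate block, 4 with no filter, 4 with limma-voom, 1 with library size only, and 0 to 22 when each library was left out; 1 was higher with DESeq2, 1 with no filter, and 0 to 2 when each library was left out. Over all genes, both directions together, an unadjusted p under 0.05 was reached by 2214 of 13669 with the replicate block and 2807 of 17621 with no filter. The counts were 1956 of 13669 with limma-voom, 2348 of 13669 with library size only and 3213 of 13669 with DESeq2. Lower and higher genes were not counted apart in these runs, so the member counts have no background by direction. Members above the vehicle pair in all TAK-931 libraries kept numbered 2 to 9 when each library was left out, and those below 19 to 26. In the main fit, 42.3% to 46.1% of all genes lay above the vehicle pair in a single TAK-931 library, and 44.4% to 47.4% below. Shares over all genes without a vehicle library were not counted. The median log2 fold change of the members was negative under every alternative run, from -0.85 without TAK-931-2 to -0.20 without TAK-931-1.

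Samples sharing a number share only that: with 2 pairs, the deviations of same-numbered libraries correlated at 0.004, and the replicate block moved no member past the adjusted threshold. The direction of Msmo1 turned with DESeq2 (0.026), at least 10 counts in every library (0.051), halved counts (0.010), median-of-ratios size factors (0.027) and library size only (0.00097). When each library was left out, the log2 fold change ran from -1.16 to 0.13 for Srebf2, -0.51 to 0.13 for Scap, -0.22 to 0.14 for Msmo1, -0.50 to 0.13 for Sc5d, -1.31 to 0.36 for Fasn and -0.48 to 0.21 for Scd2, turning without TAK-931-1, and from -0.69 to 0.21 for Fads1 and -3.54 to 0.50 for Fads2, turning without TAK-931-2; the lower value for Fads2 is fitted on 2 counts and is no measure of size. The cause was not tested. At least 10 counts in every library left 31 members, without Fads2.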
